A study of Mus musculus with 9 samples.

Results

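*Hnrnpk*, its 4 poly(C)-binding paralogs, its head-to-head neighbor *Rmi1* and the other members of the BLM-TOP3A-RMI (BTR) complex were followed in mouse embryonic fibroblasts (MEFs), in lines labelled as overexpressing *Hnrnpk* and in controls. With the deposited scaling, *Hnrnpk* mRNA itself was not called higher in both labelled lines together than in the controls. It was called lower in the line labelled SAM1, and slightly higher without being called in the line labelled SAM2. Quantile normalization of the libraries called it higher in both lines together and in each line, as described first among the results. These comparisons rest on RNA-Seq alone. For its MEFs with activated *Hnrnpk*, the study reports higher *Hnrnpk* mRNA by qRT-PCR and higher HNRNPK protein by Western blot. It also measured HNRNPK by immunofluorescence and ran proteomics on these MEFs. Protein was not measured here, and the difference from the qRT-PCR result was not tested. The 9 genes were taken by name from the deposited expression table, and all 9 were present among its 15184 genes. RNA-Seq of polyA+ RNA gave 9 libraries: empty vector MEFs and the lines labelled SAM1 and SAM2, with 3 of each. According to the study's methods, every group consisted of wild-type MEFs that received the lentiviral vectors of the synergistic activation mediator (SAM) and were selected with blasticidin and hygromycin. SAM recruits transcriptional activators to a promoter through a nuclease-dead Cas9 and a guide RNA. By the same methods, the labelled lines received a guide to *Hnrnpk*, and the controls, labelled empty vector, carried a nontargeting guide. The study prints an identical sequence for its second *Hnrnpk* guide and for the nontargeting guide, so the guide of the controls is not clear from it. The study used 2 guides separately, but the labels do not say which of them SAM1 and SAM2 carry, and the positions of the guides were not analysed here. The labels do not say whether the libraries of a line came from separate cultures, so p-values measure only the spread between these libraries. The RNA came from bulk cultures, in which fewer cells of a type and less RNA per cell cannot be told apart.

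HNRNPK and the PCBP proteins bind C-rich RNA and single-stranded DNA through K homology (KH) domains, and act in transcription, splicing, mRNA stability and translation. PCBP1 and PCBP2 also deliver iron to client proteins. RMI1 belongs to another process. Together with the RecQ helicase BLM, the topoisomerase TOP3A and RMI2, it forms the complex that dissolves double Holliday junctions, so that homologous recombination ends without crossing over. *Rmi1* enters the set because its annotated start adjoins that of the targeted gene.

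On GRCm39, *Hnrnpk* lies on the minus strand at chr13:58536691-58551339 and *Rmi1* on the plus strand at chr13:58550047-58558965. In GENCODE vM39, the canonical *Hnrnpk* transcript starts at 58550601, in exon 1, and runs across the canonical *Rmi1* start at 58550048, so their first exons overlap by 554 bases on opposite strands. Of the 145 annotated *Hnrnpk* transcripts, 79 start to the right of the *Rmi1* start, and 66 start at it or to its left. In RefSeq, the 2 genes do not overlap at their first starts, and 130 bases lie between them.

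**Figure D1:**
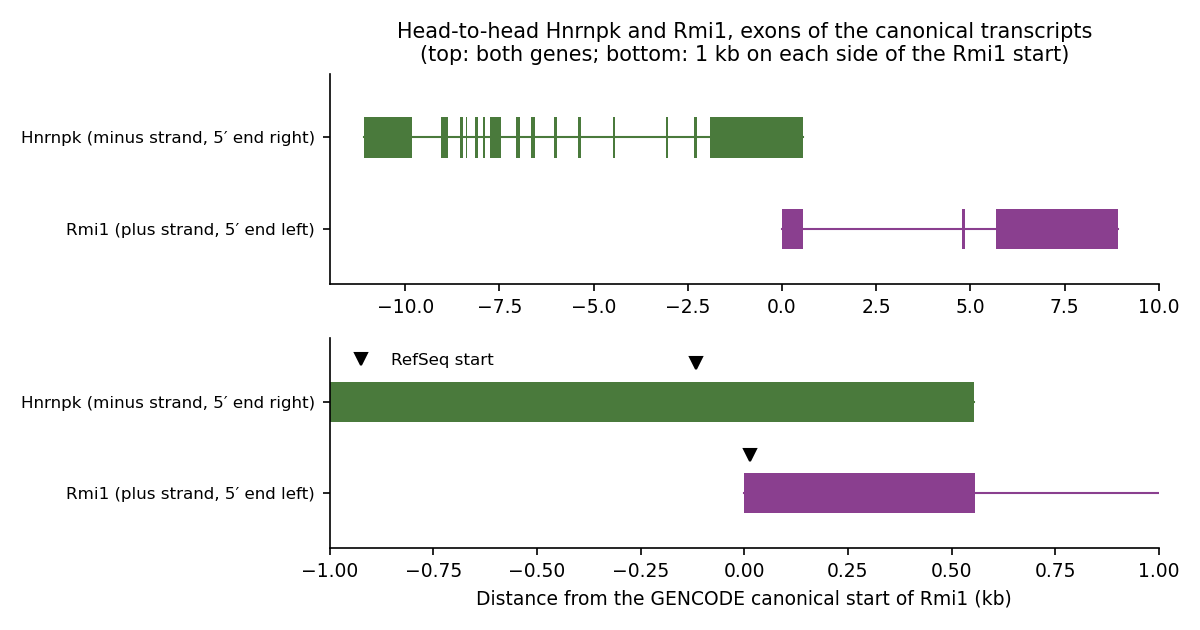
Map of the *Hnrnpk* and *Rmi1* locus, with distance from the GENCODE canonical *Rmi1* start in kb on the x axis, boxes for the exons of each canonical transcript and triangles for the RefSeq starts. The lower panel spans 1 kb on each side of the *Rmi1* start and shows that the GENCODE first exons overlap by 554 bases, whereas the RefSeq starts are separated by 130 bases.

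The 130 bases between the RefSeq starts are shown in part, because they lie before the first RefSeq starts of both the targeted gene and its neighbor. Whether they act as a promoter of either gene in these cells was not tested. Their GC content was 66.9%, against a median of 53.8% in the stretches of the same length before 32851 RefSeq starts. They held 2 CCAAT boxes, both as ATTGG on the strand of *Rmi1* and so as CCAAT on that of *Hnrnpk*. On either strand, CCAAT was found in 22.4% of the compared stretches and occurred at least 2 times in 5.05%. GENCODE places both boxes inside exons of some *Hnrnpk* transcripts. The boxes, in capitals with 10 bases on each side, were read from RefSeq sequence of GRCm38.p6 on the plus strand at chr13:58402157-58402181 and chr13:58402198-58402222. A match of these letters is a description and not a binding site.
Box near the *Hnrnpk* start: gtcgcgccccATTGGctgcccaggc
Box near the *Rmi1* start: gcgcgaagcgATTGGcccgtggccg

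RefSeq promoters were matched for 5 of the 9 genes. Only those of *Pcbp1* and *Pcbp2* were compared with each other, and the best-matching run without gaps was kept. It held 40 bases before their starts, of which 36 were identical. No other pair of promoters was searched, so how often such a run occurs is not known. A part of this run in the levels of the 2 genes was not tested. The 30 bases of this run with the fewest differences are given, with the 3 differing bases in capitals, from GRCm38.p6 at chr6:86526201-86526230 (minus strand) and chr15:102470482-102470511 (plus strand).
*Pcbp1*: cttccggggtcAGagggtAcgcggggttga
*Pcbp2*: cttccggggtcGAagggtGcgcggggttga

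The values are read counts per gene divided by a size factor for each library, here called normalized read counts. Reads on listed genes, recovered from the steps between values in 8 libraries, numbered 41759636 to 49026626, and size factors lay between 0.856 and 1.0785. Within groups, libraries correlated at Pearson's r of 0.995 to 0.997 across genes. The spread of their reads was less even, by a chi-square per gene that is about 1 under read sampling alone. It was 11.5 to 13.8 for pairs in empty vector. SAM1 replicates 1 and 3 gave 1.46, and pairs with SAM1 replicate 2 gave 7.99 and 9.49. SAM2 replicates 2 and 3 gave 2.33. The test used here shares an estimate of the spread across groups. Differences were tested with limma on log2(value + 1), with Benjamini-Hochberg adjusted p-values over all 15184 genes and a threshold of 0.05. Between the 6 labelled libraries and the empty vector libraries, 4076 genes were called higher (26.8%) and 4103 lower (27.0%). This split moved to 5344 and 2838 when values were scaled to the library total, to 1312 and 9185 relative to *Gapdh*, and to 3254 and 1080 relative to *Actb*. All 13 fibroblast markers were listed, and their sum was 1172721 to 1275970 in empty vector, 914916 to 977970 in SAM1 and 1275469 to 1316261 in SAM2. The summed endothelial markers were 301 to 357 in empty vector, 4613 to 4988 in SAM1 and 638 to 689 in SAM2, of which *Kdr* alone gave 4490 to 4880 in SAM1. *Pecam1* was at 10.5 to 15.3 in empty vector and 25.4 to 32.6 in SAM1, *Cdh5* at 71.6 to 84 and 61.5 to 69.3, and *Tek* at 31.7 to 39.9 and 24.4 to 36.1. The summed epithelial markers were 42 to 50 in empty vector, 110 to 113 in SAM1 and 43 to 52 in SAM2. The summed macrophage markers were 607 to 728, 944 to 977 and 695 to 739 in the same order, the muscle markers 44 to 83, 91 to 111 and 223 to 245, and the neural markers 1121 to 1374, 1271 to 1290 and 1099 to 1158. Of these lists, 2 of 6 epithelial, 4 of 4 endothelial, 3 of 5 macrophage, 1 of 3 muscle and 2 of 3 neural markers were listed, and *Epcam*, *Ptprc*, *Adgre1*, *Myod1* and *Sox2* were not. The part of other cell types in the results was not tested.

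The targeted gene was examined first. *Hnrnpk* was at 25058, 26098 and 26164 normalized read counts in empty vector, at 24102, 24045 and 23619 in the libraries labelled SAM1, and at 26608, 26859 and 26221 in those labelled SAM2. The SAM1 libraries were all lower than every empty vector library, and the SAM2 libraries were all higher. Their means were 23922 ± 264 and 26563 ± 321, against 25773 ± 621 in empty vector (SD, n = 3 each). In both labelled lines together, the level was 0.978-fold that of empty vector (95% interval 0.900 to 1.06, limma adjusted p = 0.642). With the deposited scaling, this interval leaves out a rise above 1.06-fold in the mRNA counted here. Line SAM1 alone was lower by a log2 difference of -0.11 ± 0.027 (SE, adjusted p = 0.00252). Line SAM2 differed by 0.04 ± 0.027 (adjusted p = 0.159), which did not pass the threshold.

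The pooled value moved with the scaling of the libraries. Quantile normalization gave a pooled log2 difference of 0.16 for *Hnrnpk* (adjusted p = 0.0199), scaling to the library total 0.09 (adjusted p = 0.123) and scaling to *Actb* 0.10 (adjusted p = 0.737). Scaling to *Gapdh* gave -0.59 (adjusted p = 0.00448), under which the median of all genes was itself at -0.55. Relative to the median of all genes, *Hnrnpk* was at -0.04 or -0.05 with the deposited values and 3 of the other scalings, and at 0.20 after quantile normalization. In line SAM1, *Hnrnpk* was at 0.09 after quantile normalization (adjusted p = 0.00502), 0.14 above the median of all genes, where the deposited values put it 0.12 below. Scaled to the library total it was at 0.04 in SAM1 (adjusted p = 0.266), still 0.12 below a median that had moved to 0.15. In line SAM2 it was called higher after quantile normalization (0.22, adjusted p = 4.59e-06), 0.26 above the median of all genes. The library total, *Actb* and *Gapdh* gave 0.15, 0.41 and -0.36 in SAM2 (adjusted p = 0.000335, 9.3e-07 and 1.01e-05), but the medians of all genes had moved to 0.10, 0.36 and -0.40. *Hnrnpk* lay 0.04 to 0.05 above each of these 3 medians, as with the deposited values. Here and below, dividing a library by a common factor shifts all its genes alike. The distance from the median of all genes is then nearly fixed in advance, so this agreement is no further evidence. Of the scalings tried, only quantile normalization could change it.

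**Figure D2:**
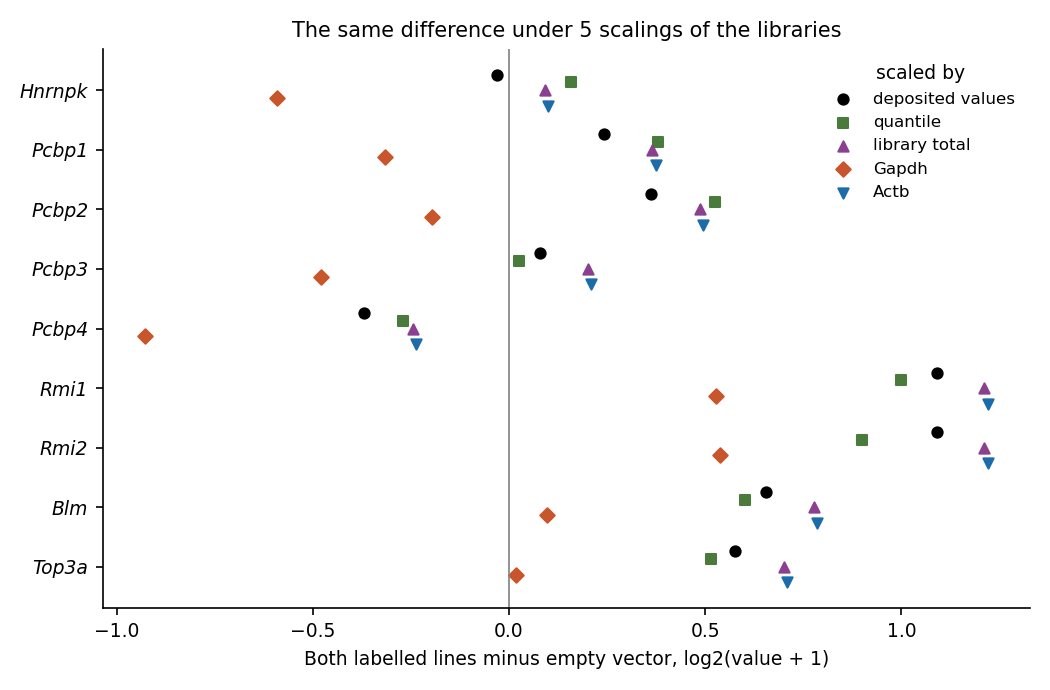
Log2 difference between both labelled lines and empty vector (x axis, on log2(value + 1)) for the 9 genes, with 1 symbol for each of 5 scalings of the libraries. *Rmi1*, *Rmi2*, *Blm* and *Top3a* stay right of 0 and *Pcbp4* left of 0 under all 5, though *Blm* and *Top3a* are only at 0.10 and 0.02 relative to *Gapdh*. *Hnrnpk* lies on both sides of 0, and scaling to *Gapdh* moves every gene to the left.

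The adjoining *Rmi1* was at 340, 352 and 349 normalized read counts in empty vector, 720, 698 and 680 in SAM1, and 822, 754 and 761 in SAM2. All 6 labelled libraries lay above all 3 empty vector libraries, with no overlap. The mean rose from 347 ± 6.45 in empty vector to 699 ± 20.4 in SAM1 and 779 ± 37.4 in SAM2 (SD, n = 3 each). In both lines together *Rmi1* rose 2.12-fold (95% interval 1.91 to 2.36, limma adjusted p = 1.29e-06), and 9.13% of all genes had a higher log2 difference. The rise was 2.01-fold in SAM1 (adjusted p = 9.11e-10) and 2.24-fold in SAM2 (adjusted p = 3.34e-10). The call held under all 20 settings tried, with log2 differences of at least 0.53. *Rmi1* mRNA amounted to 1.35% of that of *Hnrnpk* in empty vector, 2.93% in SAM1 and 2.94% in SAM2, as read counts without regard to length.

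This ratio of neighboring genes does not change when all values of a library are divided by 1 factor. The log2 ratio of *Rmi1* to *Hnrnpk* was -6.20, -6.21 and -6.22 in empty vector, -5.06, -5.10 and -5.12 in SAM1, and -5.01, -5.15 and -5.11 in SAM2. The ranges of the labelled and empty vector libraries did not overlap, and the difference was 1.12 (exact permutation test over 84 splits, two-sided p = 0.0119, the smallest it can give, and 0.019 adjusted over the 8 ratios tested).

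Other genes nearby did not share the rise as a group. On chromosome 13, the median log2 difference of 598 listed genes between both labelled lines and empty vector was -0.12, and 8.86% of them were above *Rmi1*. Of the 9 listed genes within 1 Mb of *Rmi1*, *Hnrnpk* included, 1 was called higher and 3 lower, where 26.8% and 27.0% of all genes were (median -0.19). The higher one was *Klhl3*, an adaptor of a ubiquitin ligase, 275 kb to the left of *Hnrnpk* (1.33 ± 0.19, SE, adjusted p = 0.000284). *Ubqln1*, *Idnk* and *Hnrnpa0* fell by 0.19, 0.31 and 0.20, with adjusted p of 0.000373, 0.0079 and 0.0453. The nearest listed gene on the left, *Kif27*, was low, at 14.7 ± 2.46 in empty vector, 17.8 ± 6.78 in SAM1 and 8.84 ± 0.470 in SAM2 (adjusted p = 0.61 for both lines together). To the right of *Rmi1*, the nearest listed gene was *Gm34788*, about 1 Mb away and at 5.84 to 13.7 in the 9 libraries (adjusted p = 0.896). The microRNA gene *Mir7-1*, which lies within *Hnrnpk*, had a row of its own at 30.6 ± 10.2 in empty vector, 30.4 ± 6.26 in SAM1 and 28.3 ± 3.90 in SAM2 (SD, n = 3 each, adjusted p = 0.936).

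Counts of these neighbors have limits set by the sequence. Exons of *Hnrnpk* and *Rmi1* share 1029 bases on opposite strands, 9.02% of the exon bases of *Hnrnpk* and 13.4% of those of *Rmi1*. The library kit kept the strand, but whether counting used it is not given in the sources used here, and without strand, reads from these bases cannot be told apart. Of the windows of 43 bases (1 read) along the canonical *Rmi1* transcript, 48.4% also occurred at chrY:10640936-10643227 on GRCm39. Of 4 Y-linked genes searched for in the table, only *Kdm5d* was listed, at 2.97 to 16.6 in the 9 libraries. For *Hnrnpk* the share was 28.7%, mostly at chr7:83405029-83407001. How reads with several matches were counted is likewise not given, so both levels are uncertain to that extent.

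The paralogs of *Hnrnpk* moved in both directions, as described next for each. In the comparison of both labelled lines with empty vector, 7 of the 9 genes of the set were called, 6 higher and 1 lower, where 26.8% and 27.0% of all genes were called in these directions. Their median log2 difference was 0.36, against 0.01 over all genes. In 6 of the 9, every labelled library was above every empty vector library, as for 25.9% of all genes, and in 1 of the 9 every labelled library was below, as for 27.2%.

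**Figure D3:**
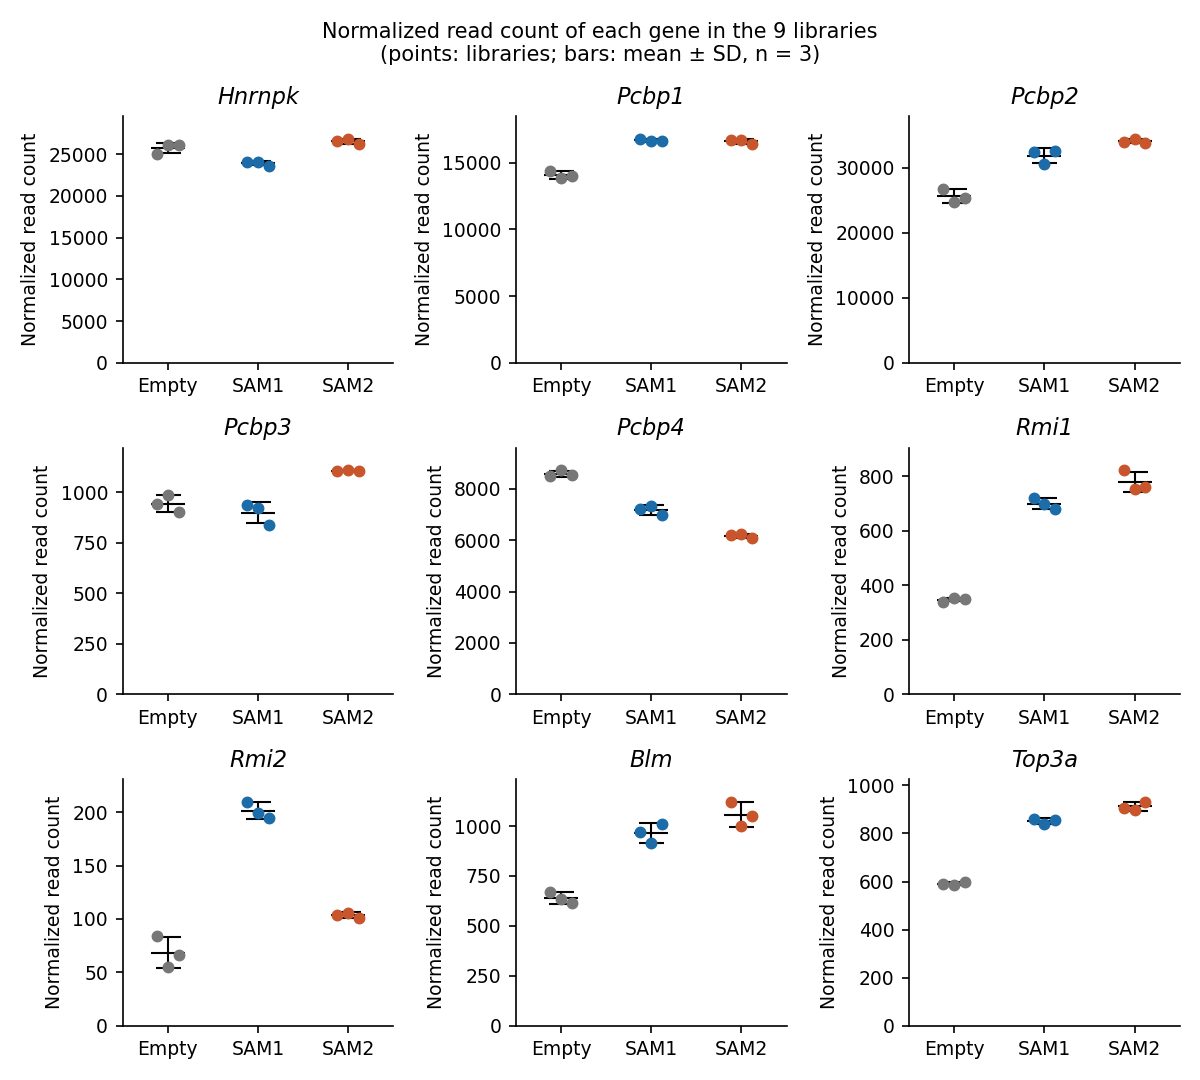
Normalized read count (y axis, from 0) of each gene in every library of empty vector, SAM1 and SAM2, with black bars for mean ± SD (n = 3). *Pcbp1*, *Pcbp2*, *Rmi1*, *Rmi2*, *Blm* and *Top3a* are higher in every labelled library than in any empty vector library and *Pcbp4* is lower, while *Hnrnpk* and *Pcbp3* lie on both sides.

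*Pcbp1*, an intronless paralog with 1 canonical exon, was at 14395, 13833 and 13994 in empty vector, 16798, 16611 and 16642 in SAM1, and 16707, 16729 and 16395 in SAM2. The labelled libraries were all above those of empty vector, and the 2 lines overlapped. The gene rose 1.18-fold in both lines together (95% interval 1.13 to 1.24, limma adjusted p = 0.000119). The difference between SAM2 and SAM1 was -0.01 on the log2 scale (95% interval -0.06 to 0.05, adjusted p = 0.843).

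*Pcbp2*, which encodes the other main poly(C)-binding protein and iron chaperone, was at 26821, 24800 and 25370 in empty vector, 32514, 30545 and 32606 in SAM1, and 34054, 34500 and 33844 in SAM2. All 6 labelled libraries were above empty vector, and all SAM2 libraries were above all SAM1 libraries. The rise in both lines together was 1.29-fold (95% interval 1.19 to 1.39, adjusted p = 0.000193). Relative to *Gapdh*, which itself rose by 0.56 ± 0.097 (SE, adjusted p = 0.00094), *Pcbp1* was at -0.32 (adjusted p = 0.0219) and *Pcbp2* at -0.20 (adjusted p = 0.194). Both lay above the median of all genes, by 0.23 and 0.35, a distance that this scaling leaves nearly as it was. Relative to *Actb* neither rise was called, at 0.37 (adjusted p = 0.0942) and 0.49 (adjusted p = 0.0607).

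*Pcbp3*, the paralog with the lowest level, was at 943, 988 and 903 in empty vector, 937, 921 and 839 in SAM1, and 1107, 1110 and 1106 in SAM2. SAM1 overlapped empty vector, and SAM2 was above both. It rose in line SAM2 alone by 0.23 ± 0.051 (SE, limma adjusted p = 0.00115). It was at -0.07 ± 0.051 in SAM1 (adjusted p = 0.21) and at 0.08 ± 0.099 in both lines together (adjusted p = 0.53). Relative to *Gapdh* the SAM2 value turned to -0.17 (adjusted p = 0.0373), where the median of all genes was -0.40. *Pcbp3* lay 0.23 above that median, a distance that this scaling leaves nearly unchanged.

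*Pcbp4*, known as a target of p53, was at 8498, 8730 and 8542 in empty vector, 7209, 7341 and 6967 in SAM1, and 6193, 6233 and 6081 in SAM2. The 3 groups did not overlap, and SAM2 was the lowest. In both lines together it fell to 0.774-fold (95% interval 0.696 to 0.862, adjusted p = 0.00146), with a fall to 0.835-fold in SAM1 and to 0.718-fold in SAM2 (adjusted p = 2.2e-06 and 6.37e-09). Relative to *Actb* the pooled fall was not called (-0.24, adjusted p = 0.147).

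Set against *Hnrnpk* in the same library, *Pcbp2* moved from 99.7% of its read count in empty vector to 133% in SAM1 and 129% in SAM2. *Pcbp1* moved from 54.6% to 69.7% and 62.5%, and *Pcbp4* from 33.3% in empty vector to 23.2% in SAM2. The log2 ratio to *Hnrnpk* differed between labelled and empty vector libraries by 0.27 for *Pcbp1* and 0.40 for *Pcbp2* (exact permutation p = 0.0119 and adjusted p = 0.019 for each), and by -0.34 for *Pcbp4* (exact p = 0.0238, adjusted 0.0272). With 1 of the 9 libraries left out, *Pcbp4* did not pass in 6 cases (exact p = 0.143 without any 1 empty vector library and 0.0714 without any 1 SAM2 library). Its mean log2 ratio was -1.585 in empty vector, -1.738 in SAM1 and -2.106 in SAM2. The permutation takes the labelled libraries as 1 group and ignores such a gap between the lines. For *Pcbp3* the ratio differed by 0.11 (exact p = 0.107).

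The paralogs share exons with other genes as well. On the opposite strand, the noncoding *1600020E01Rik* covers 82.4% of the exon bases of *Pcbp1*, and *Map3k12*, a kinase gene, 17.3% of those of *Pcbp2*. *1600020E01Rik* was at 216 ± 33.6 in empty vector and differed by 0.18 in both labelled lines (adjusted p = 0.324). *Map3k12* rose by 0.53 ± 0.067 (SE, adjusted p = 0.000137). The genes around *Pcbp1* and *Pcbp2* were also high. Within 1 Mb, 10 of 27 neighbors of *Pcbp1* were called higher and 2 lower (median 0.30), where 26.8% and 27.0% of all genes were. Of 31 neighbors of *Pcbp2*, 18 were called higher and none lower (0 genes by limma, median 0.32). The medians of chromosomes 6 and 15 were 0.18 and 0.26, so *Pcbp1* lay 0.07 and *Pcbp2* 0.11 above the median of its chromosome. The medians of chromosome 9, which holds *Pcbp4*, and of chromosome 10, which holds *Pcbp3*, were -0.14 and 0.00. Values that move along a chromosome were not tested for their part in these differences.

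**Figure D4:**
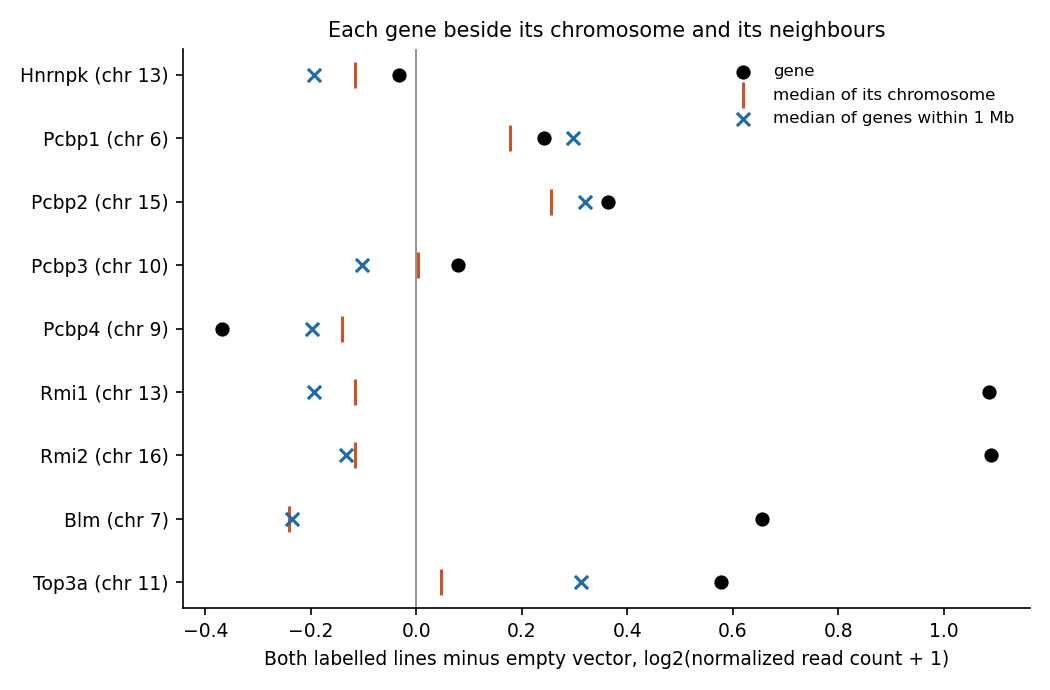
Log2 difference between both labelled lines and empty vector (x axis) of each gene (point), with the median of all listed genes on its chromosome (bar) and of the listed genes within 1 Mb (cross). *Pcbp1* and *Pcbp2* lie within 0.11 of the median of their chromosome, whereas *Rmi1*, *Rmi2*, *Blm* and *Top3a* lie 0.53 to 1.21 above theirs.

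The partners of *Rmi1* in the BTR complex rose with it. *Blm*, the RecQ helicase of the complex, was at 672, 637 and 613 in empty vector, 968, 914 and 1012 in SAM1, and 1123, 999 and 1048 in SAM2. All labelled libraries were above empty vector, and the lines overlapped. *Blm* rose 1.57-fold in both lines together (95% interval 1.42 to 1.75, limma adjusted p = 3.37e-05). *Top3a*, the topoisomerase that passes DNA strands in the reaction, was at 588, 587 and 597 in empty vector, 860, 840 and 856 in SAM1, and 905, 899 and 933 in SAM2. Its 3 groups did not overlap. It rose 1.49-fold (95% interval 1.38 to 1.61, adjusted p = 9.45e-06). Of the 36 listed neighbors of *Top3a* within 1 Mb, 19 were called higher and 0 lower by limma, where 26.8% and 27.0% of all genes were (median 0.31).

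*Rmi2*, the small subunit that binds RMI1, was at 83.9, 54.6 and 66.6 in empty vector, 210, 199 and 195 in SAM1, and 104, 106 and 101 in SAM2. The groups did not overlap, and SAM1 was the highest. It rose 2.96-fold in SAM1 (95% interval 2.43 to 3.61, adjusted p = 1.5e-07) and 1.53-fold in SAM2 (95% interval 1.26 to 1.86, adjusted p = 0.000961). In both lines together the rise was 2.13-fold (95% interval 1.34 to 3.39, adjusted p = 0.0118), and without empty vector replicate 2 it was not called (log2 difference 0.94, adjusted p = 0.0581). *Rmi2* had the fewest reads of the set, 52 to 221 in the libraries with recovered reads. Relative to *Gapdh*, the rises of *Blm* and *Top3a* in both lines together were not called, at 0.10 (adjusted p = 0.563) and 0.02 (adjusted p = 0.911), although both lay more than 0.5 above the median of all genes on that scale. In SAM2 alone, *Rmi2* relative to *Gapdh* was at 0.21 (adjusted p = 0.122), where the median of all genes was -0.40.

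Against *Hnrnpk* in the same library, the log2 ratios of *Blm* and *Top3a* differed by 0.69 and 0.61 between labelled and empty vector libraries (exact permutation p = 0.0119, adjusted p = 0.019 for each), and that of *Rmi2* by 1.12 (exact p = 0.0238, adjusted 0.0272). The ratio of *Rmi2* did not pass in 5 of 9 cases with 1 library left out (exact p = 0.143 and 0.107 without empty vector replicate 2 or 3, and 0.0714 without any 1 SAM1 library). The mean log2 ratio of *Rmi2* was -8.559 in empty vector, -6.885 in SAM1 and -7.989 in SAM2, a gap between the lines that the permutation ignores. Other chromosomes carried the partners, and their medians were -0.24 for chromosome 7 (*Blm*), 0.05 for chromosome 11 (*Top3a*) and -0.12 for chromosome 16 (*Rmi2*).

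**Figure D5:**
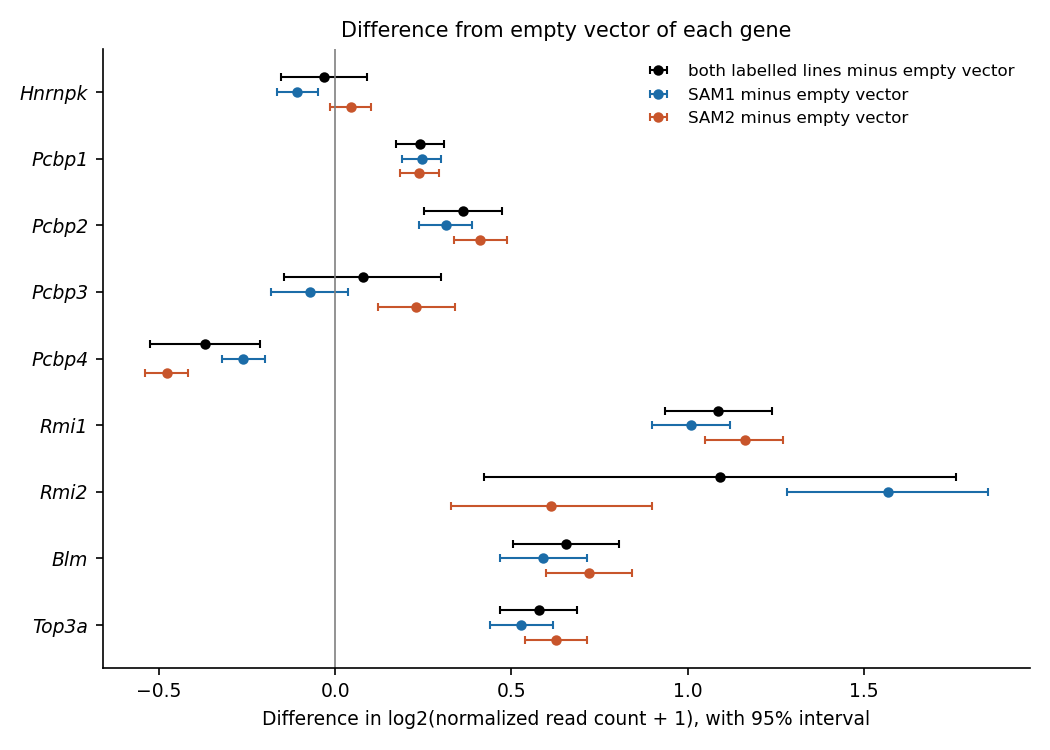
Difference in log2(normalized read count + 1) from empty vector (x axis, points with 95% intervals from limma) for both labelled lines together, SAM1 and SAM2. The 4 BTR genes are right of 0 in every comparison, from 0.53 for *Top3a* to 1.57 for *Rmi2* in SAM1, and the interval of *Hnrnpk* in both lines together, -0.15 to 0.09, includes 0.

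Each line was then compared with empty vector on its own, and the 2 comparisons share the same 3 control libraries. In SAM1, 6 of the 9 genes were called higher and 2 lower, where 37.3% and 36.9% of all genes were. In SAM2, 7 were called higher and 1 lower, where 35.2% and 35.3% of all genes were. *Rmi1* and *Top3a* were at log2 differences of 1.01 and 0.53 in SAM1 and 1.16 and 0.63 in SAM2, and *Blm* was at 0.59 and 0.72. Between the lines, 4 of the 9 genes were higher in SAM2 and 2 lower, where 31.1% and 29.2% of all genes were called. *Rmi2* was lower in SAM2 than in SAM1 by a log2 difference of -0.95 ± 0.13 (SE, adjusted p = 3.69e-05), while *Hnrnpk* was higher by 0.15 ± 0.027 (adjusted p = 0.000288).

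The other 2 genes whose products act in the BTR complex with *Rmi1* did not pass the threshold between the lines, at 0.13 for *Blm* (95% interval 0.01 to 0.25, adjusted p = 0.0627) and 0.10 for *Top3a* (95% interval 0.01 to 0.19, adjusted p = 0.0541). *Rmi1* itself was higher in SAM2 by 0.15 (adjusted p = 0.02). The call was lost on the recovered reads with edgeR (0.11, adjusted p = 0.0771) and DESeq2 (0.12, adjusted p = 0.216). Quantile and library total scaling also lost it (adjusted p = 0.0703 and 0.0695). So did leaving out SAM1 replicate 3 (0.13, adjusted p = 0.0748) or SAM2 replicate 1 (0.12, adjusted p = 0.103).

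Levels were compared between genes per kilobase of merged exons. In empty vector, *Pcbp1* was the highest at 5787 ± 119 normalized read counts per kb, followed by *Pcbp2* at 2633 ± 107, *Hnrnpk* at 2260 ± 54.4, *Pcbp4* at 868 ± 12.4 and *Pcbp3* at 111 ± 5.02 (SD, n = 3). The BTR genes were lower, with *Top3a* at 77.8 ± 0.707, *Blm* at 50.4 ± 2.33, *Rmi1* at 45.1 ± 0.839 and *Rmi2* at 9.76 ± 2.10. Each step in this order was larger than the SDs of both genes. In SAM1, *Pcbp3* (106 ± 6.18) and *Top3a* (112 ± 1.37) were within their spread. *Rmi1* stood above *Blm* in both labelled lines, at 91.0 ± 2.65 against 75.9 ± 3.83 in SAM1 and 101 ± 4.87 against 83.1 ± 4.90 in SAM2. The length used decided part of the order. Per kb of the canonical transcript, *Pcbp2* was above *Pcbp1* in empty vector (12152 ± 493 and 7691 ± 158). On that scale *Blm* stayed above *Rmi1* in SAM1 (209 ± 10.6 and 180 ± 5.24) and in SAM2 (229 ± 13.5 and 200 ± 9.63).

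The genes whose log2 values over the 9 libraries followed those of *Hnrnpk* most closely, among 11340 with a mean of at least 100, were *Pkdcc*, *Rpl10a*, *Vhl*, *Wdr45* and *Rpl22l1*, with Pearson's r of 0.987 to 0.981. All 5 had lower means in SAM1 than in empty vector. Those closest to *Rmi1* were *Cdh24*, *Exosc8*, *Lpar6*, *Plekha2* and *Actg2*, with r of 0.998 to 0.997. The 9 libraries fall into 3 groups, so these coefficients mainly describe the order of the group means, and 994 genes had an r above 0.95 with *Rmi1* against 90 with *Hnrnpk*. Of the set itself, *Top3a* (r = 0.994), *Blm* (0.981) and *Pcbp1* (0.976) were near *Rmi1*, *Rmi2* was at 0.694, and *Pcbp4* was at -0.927.

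Related genes gave the context for both families. The lists here and in the paragraphs that follow were chosen with earlier results of these data known, so their shares are a description only. Of 24 other hnRNP genes, 10 (41.7%) were called higher and 6 (25.0%) lower in both labelled lines together, where 26.8% and 27.0% of all genes were (median 0.10, against 0.01 over all genes). They included *Rbmx*, an X-linked RNA-binding protein, which rose by 0.97 ± 0.27 (SE, limma adjusted p = 0.0129), and *Hnrnpab*, which rose by 0.45 ± 0.031 (adjusted p = 2.8e-06). *Hnrnpdl* and *Hnrnph3* fell by 0.31 and 0.26 (adjusted p = 0.000315 and 0.000347). Of 30 listed genes for other KH-domain proteins, 7 (23.3%) were called higher and 15 (50%) lower, against the same 26.8% and 27.0% (median -0.11). *Bicc1*, a translational regulator, rose by 1.82 ± 0.043 (adjusted p = 6.17e-09), and *Khdrbs3* by 0.52 ± 0.14 (adjusted p = 0.00962). *Nova1*, a splicing regulator best known from neurons, fell by 1.75 ± 0.19 (adjusted p = 4.69e-05), and *Mex3b* by 0.63 ± 0.045 (adjusted p = 3.39e-06).

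Of 11 genes that work with PCBP proteins in iron handling, 1 (9.09%) was called higher and 4 (36.4%) lower, where 26.8% and 27.0% of all genes were (median -0.19). *Ncoa4*, the cargo receptor for ferritin, rose by 0.15 ± 0.038 (adjusted p = 0.0072). *Bola2* and *Glrx3*, whose products form an iron-sulfur chaperone complex, fell by 0.61 and 0.53 (adjusted p = 9.38e-05 and 0.000195). Of 7 genes that HNRNPK is known to regulate or bind, 3 (42.9%) were called higher and 2 (28.6%) lower, against the same 26.8% and 27.0% (median -0.04). *Trp53*, which encodes p53, rose from 1084 ± 27.8 in empty vector by 1.16 ± 0.039 on the log2 scale (SE, adjusted p = 3.61e-08), and *Ncl*, the gene for nucleolin, by 0.28 ± 0.039 (adjusted p = 0.000229). The p53 target *Cdkn1a* fell by 0.29 ± 0.058 (adjusted p = 0.00209), and *Eif4e* by 0.18 ± 0.033 (adjusted p = 0.00119).

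Around the BTR complex, 5 of 9 genes (55.6%) for other RecQ helicases and topoisomerases were called higher and 2 (22.2%) lower, where 26.8% and 27.0% of all genes were (median 0.21). *Recql4* rose by 1.71 ± 0.17 (SE, adjusted p = 2.77e-05) and *Top2a* by 0.98 ± 0.092 (adjusted p = 1.85e-05), whereas *Recql5* and *Top3b* fell by 0.49 and 0.25 (adjusted p = 0.000107 and 0.000607). Of 10 genes for proteins that associate with the complex, 5 (50%) were called higher and 2 (20%) lower, against the same 26.8% and 27.0% (median 0.27). *Fancm*, the translocase that recruits it to stalled forks, rose by 0.97 ± 0.095 (adjusted p = 2.45e-05), and *Rpa2* by 0.59 ± 0.12 (adjusted p = 0.00271). *Spidr* and *Faap24* fell by 0.47 and 0.21 (adjusted p = 4.08e-06 and 0.0417). Of 8 genes of the nucleases that resolve Holliday junctions by cutting them, 4 (50%) were called higher and 3 (37.5%) lower, again against 26.8% and 27.0% (median 0.14). *Eme1* and *Gen1* rose by 1.11 and 0.95 (adjusted p = 0.000186 and 0.00031), while *Ercc1* and *Mus81* fell by 0.36 and 0.26 (adjusted p = 0.000349 and 0.0119).

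Proliferation genes on a list chosen with these results known were also higher. All 10, *Top2a* among them, were called higher in both labelled lines together, where 26.8% of all genes were. Their median was 1.21, and *Mki67* and *Bub1* rose by 1.45 and 1.64 (limma adjusted p = 4.64e-07 and 1.63e-06). Their part in the rise of *Rmi1*, *Rmi2*, *Blm* and *Top3a* was not tested.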

How the data were processed

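PolyA+ RNA of 9 MEF libraries was grouped by the labels. Per the labels and the study's methods, the authors aligned read pairs of 43 bases to GRCm39 with TopHat2 (3 mismatches and 20 multihits allowed), counted them on GENCODE vM29 genes with HTSeq and divided the counts by DESeq2 size factors. The deposited values are thus a normalized count signal, for genes above 10 in at least 30% of samples. FastQC was version 0.11.0, and the other versions are not given in the sources used here.

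The main test was limma 3.58.1 (trend) in R 4.3.3 on log2(value + 1), in a fit of 2 groups and a fit of 3 groups, after the code was tested on simulated data. A fold change on this scale understates that of low genes. All values were whole multiples of 1 read, within 0.01 read. edgeR 4.0.16 and DESeq2 1.42.0 were run on reads recovered in 8 libraries, without SAM2 replicate 1, whose step was too close to 1 to be checked. Other alternatives were pseudocount 10, a filter above 10 in every library, quantile, library total, *Gapdh* and *Actb* scaling, a replicate block, the mean of the 2 lines, and each library left out. Coordinates are from GENCODE vM39, in which 14791 of the 15184 names were found once. Sequences are from RefSeq (GRCm38.p6), and the stretch between the *Hnrnpk* and *Rmi1* starts was placed on GRCm39 by its only exact match on chromosome 13.

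The named genes are the 9 members, the 5 genes most like *Hnrnpk* and *Rmi1*, the nearest neighbors, and from each list the 2 called genes with the largest rise and fall. *Klhl3*, *Ubqln1*, *Idnk*, *Hnrnpa0*, *Mir7-1*, *Mki67* and *Bub1* were named after their values were seen. Members and lists were chosen with earlier results of these data known.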

Additional observations from a re-analysis of the deposited data

Results flagged for a closer look

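For 6 of the 9 genes, the effect differed between the 2 lines by limma's test of SAM2 against SAM1. *Hnrnpk* (0.151, adjusted p = 0.000288), *Pcbp2* (0.099, adjusted p = 0.0253), *Pcbp3* (0.302, adjusted p = 0.000188) and *Rmi1* (0.154, adjusted p = 0.02) were higher in SAM2 on the log2 scale. *Pcbp4* (-0.217, adjusted p = 2.43e-05) and *Rmi2* (-0.953, adjusted p = 3.69e-05) were lower in SAM2. The difference of *Pcbp2* was not called with edgeR (0.097, adjusted p = 0.0569), DESeq2 (0.101, adjusted p = 0.0696) or library total scaling (0.060, adjusted p = 0.123). Nor was it called without SAM1 replicate 2 (0.068, adjusted p = 0.0888) or without any 1 of the SAM2 libraries, where its adjusted p was 0.0508 to 0.0837. The difference of *Rmi1* was not called with edgeR or DESeq2 (adjusted p = 0.0771 and 0.216), nor after quantile or library total scaling (0.0703 and 0.0695). That of *Pcbp4* turned to 0.25 relative to *Actb* (adjusted p = 0.000155), where the median of all genes between lines was 0.45, so *Pcbp4* lay at -0.21 relative to it.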

How the results depend on the processing

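Relative to *Actb*, 4334 genes and 4 of the 9 members were called in both labelled lines together, against 8179 and 7 with the deposited values. The other counts stayed within 1.5 times. Leaving out 1 library at a time gave 6761 to 8133 genes and 6 to 7 members in that comparison. For *Hnrnpk* in both lines, scaling gave 0.159 (quantile), 0.0912 (library total), 0.0996 (*Actb*) and -0.591 (*Gapdh*). Directions also turned for *Hnrnpk* in SAM1 (0.0944 quantile, 0.035 library total) and SAM2 (-0.361 *Gapdh*), and for *Pcbp3* in SAM1 (0.0697 library total). Relative to *Gapdh* they turned for *Pcbp1* (-0.317 in both lines, -0.469 in SAM1, -0.165 in SAM2, 0.304 between lines), *Pcbp2* (-0.197 in both lines, -0.401 in SAM1), *Pcbp3* (-0.48 in both lines, -0.174 in SAM2), *Pcbp4* (0.0929 between lines), *Blm* (-0.124 in SAM1) and *Top3a* (-0.186 in SAM1), and relative to *Actb* for *Pcbp1* (0.457) and *Pcbp4* (0.246) between lines. By construction, the last 2 scalings follow *Gapdh*, which rose, and *Actb*, which was at -0.46 between lines. Between lines, *Pcbp1* ranged from -0.0115 to 0.00301 with 1 library left out. The log2 ratios to *Hnrnpk* ranged from -0.379 to -0.3 for *Pcbp4*, 0.964 to 1.3 for *Rmi2* and 0.0674 to 0.142 for *Pcbp3* with 1 library left out, on the other side of the threshold in 6, 5 and 1 of 9 cases.

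Libraries of equal replicate number in different groups were weakly alike, with a mean r of deviations of 0.0531 (0.0024 to 0.117, 9 pairs). For unequal numbers it was -0.0265 (-0.122 to 0.046, 18 pairs). The main fits used no replicate block. With a block, limma called 7343 genes in both lines together, against 8179 without it. In SAM1, in SAM2 and between lines it called 11631, 11095 and 9812, against 11275, 10699 and 9162. The block also called *Blm* between lines (0.131, adjusted p = 0.0285). The depth of recovered reads limits *Rmi2* most, and the counting of strand and of reads with several matches could not be varied.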
